A study of Mus musculus with 6 samples.

Results

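Protein kinase N (PKN) genes were followed in the mouse aorta, with *Pkn2* (NCBI gene 109333) and *Pkn3* (NCBI gene 263803) as the 2 members among the 18191 genes in the expression table. They were picked by gene identifier from earlier results of these same data, in which *Pkn3* had the smallest p-value of the genotype comparison. Its genotype values are therefore given as a description, with no test. The endothelial genes *Pecam1* and *Cdh5* were read beside them. RNA was sequenced in 3 libraries of wild type (WT) aorta and 3 of aorta from *Npr1*+/- mice, heterozygous for a knockout of the natriuretic peptide receptor gene made by CRISPR-Cas9. All 6 libraries are labelled male, and the labels give neither age nor strain, nor whether each library is a separate animal, so p-values measure the spread between these libraries. The loss of *Npr1* was not restricted to a cell type, and the RNA came from the aorta as a whole. Each library held 13510970 to 16664343 estimated counts. The *Npr1* level (FPKM, fragments per kilobase of transcript scaled to library size) was 112 to 153 in WT and 70.4 to 133 in *Npr1*+/- aortas, so the groups overlapped at the targeted gene, whose log2 fold change was -0.41 (SE 0.27, n = 3 per genotype).

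PKN proteins are serine/threonine kinases of the AGC group, whose catalytic domain resembles that of protein kinase C. Their amino-terminal repeats bind active small GTPases such as RHOA, and PDK1 phosphorylates the activation loop, so they act downstream of these GTPases and of phosphoinositide signalling. *Pkn2* is expressed in most tissues and is needed for embryonic development. *Pkn3* has a narrower distribution that includes vascular endothelium, and has been studied in angiogenesis and tumour spread.

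The genes lie on different chromosomes. In GRCm38, *Pkn3* spans chr2:30077548-30091023 on the plus strand and *Pkn2* spans chr3:142790902-142882004 on the minus strand. *Npr1* is also on chromosome 3, 52.3 Mb from *Pkn2*. The 250 bases before each annotated RefSeq start (GRCm38.p6) are printed 5′ to 3′ because the members differed in base composition there; capitals mark each CpG. The *Pkn2* window is chr3:142882005-142882254 on the minus strand and the *Pkn3* window is chr2:30078448-30078697 on the plus strand. The *Pkn3* window lies inside the gene span above, because the start it precedes is not the first base of that span, which covers several annotated transcripts.
Pkn2: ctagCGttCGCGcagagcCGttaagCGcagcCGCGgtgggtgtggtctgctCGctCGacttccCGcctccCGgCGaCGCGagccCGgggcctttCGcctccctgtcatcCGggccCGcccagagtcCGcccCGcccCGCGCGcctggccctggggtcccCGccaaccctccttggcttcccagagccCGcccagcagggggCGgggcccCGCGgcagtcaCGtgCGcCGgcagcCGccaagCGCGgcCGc
Pkn3: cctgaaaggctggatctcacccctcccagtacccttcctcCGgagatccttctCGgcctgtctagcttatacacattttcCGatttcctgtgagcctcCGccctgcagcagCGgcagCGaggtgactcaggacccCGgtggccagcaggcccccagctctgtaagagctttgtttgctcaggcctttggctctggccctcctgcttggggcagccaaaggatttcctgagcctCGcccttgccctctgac

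The *Pkn2* window held 35 CpG and was 77.6% G or C, and 97.0% of 32851 annotated windows of this length held fewer CpG. The *Pkn3* window held 8 CpG and was 60.8% G or C, close to the medians of 6 CpG and 52.4% over all windows. The motif GGAA, the core of ETS factor sites, was counted on both strands and occurred 4 times before *Pkn3* and 2 times before *Pkn2*. It was present in 93.5% of all windows. The longer motif CCGGAA was found in neither window and in 12% of all windows.

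*Pkn3* was higher in every *Npr1*+/- aorta than in any WT aorta, and *Pkn2* was not separated by genotype. The *Pkn3* level was 6.66, 5.81 and 6.85 FPKM in WT 1, 2 and 3, and 14.6, 13.9 and 15.9 FPKM in *Npr1*+/- 1, 2 and 3. The lowest *Npr1*+/- aorta thus stood above the highest WT aorta, and the libraries within a genotype lay close together. The means were 6.44 ± 0.554 FPKM in WT and 14.8 ± 1.04 FPKM in *Npr1*+/- aortas (SD, n = 3 each).

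The same separation was present in the counts. *Pkn3* had 281.1, 290.5 and 364.3 estimated counts in WT and 675.8, 709.7 and 761 in *Npr1*+/- libraries. Counting alone gave an error of 3.63% to 5.96% of these values. The fitted log2 fold change was 1.21 (SE 0.13), a level 2.32-fold that of WT. Among the libraries that share a replicate number, *Pkn3* in CPM (counts scaled to library size, not to length) was 2.35-, 2.50- and 2.15-fold higher in *Npr1*+/- than in WT for numbers 1, 2 and 3. Across all genes tested, 3.9% were higher without overlap between the groups, and 0.789% were so with a log2 fold change of at least 1. These shares are background only, since *Pkn3* was picked on this contrast. Its rank among all 18191 genes, by FPKM within a library, was at percentile 54.0 to 57.6 in WT and 72.1 to 74.3 in *Npr1*+/- aortas.

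*Pkn2*, which takes part in cell adhesion and cell cycle control, was at 11.3, 14.2 and 12.6 FPKM in WT and 10.3, 15.6 and 12.7 FPKM in *Npr1*+/- aortas. Both the lowest and the highest values came from *Npr1*+/- libraries, numbers 1 and 2, so the WT range lay inside the *Npr1*+/- range. The group means were 12.7 ± 1.46 and 12.9 ± 2.64 FPKM (SD, n = 3 each). The log2 fold change was 0.03 (SE 0.18, edgeR adjusted p = 0.999), where 0% of 13938 tested genes were called, and 2 SE on each side ran from -0.33 to 0.39. Blocking on replicate number gave 0.01 (SE 0.11) on the log2 scale. The libraries numbered 1 held the lowest *Pkn2* of each genotype and those numbered 2 the highest.

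**Figure D1:**
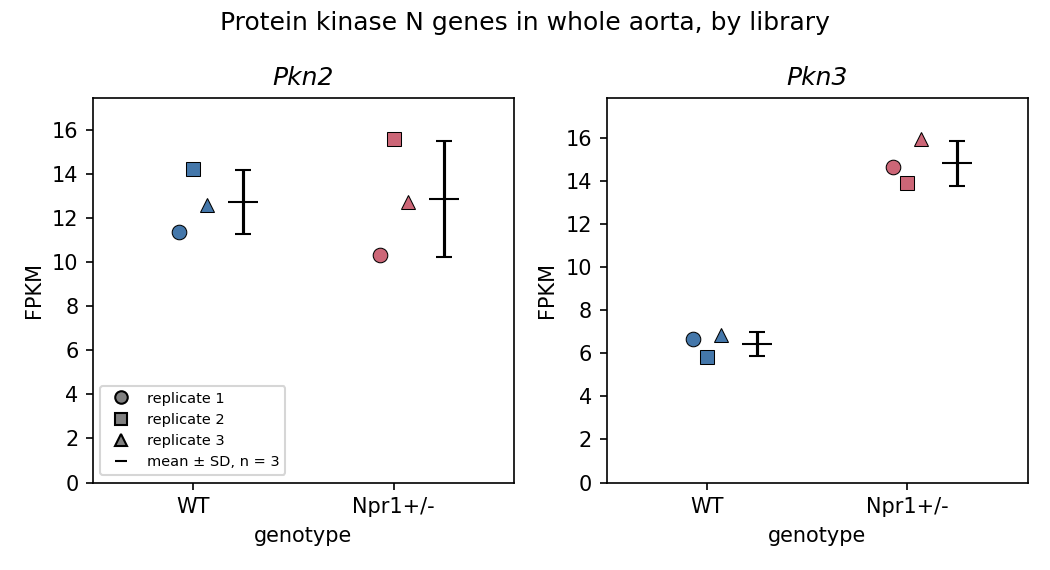
FPKM of *Pkn2* and *Pkn3* in each of the 6 libraries by genotype (y axis from 0, FPKM; points shaped by replicate; bars are the mean ± SD of 3). *Pkn3* lies at 5.81 to 6.85 in WT and 13.9 to 15.9 in *Npr1*+/- aortas, whereas the genotypes overlap for *Pkn2*.

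Transcripts of *Pkn2* and *Pkn3* shared no 50-base run with each other. *Pkn2* shared none with any other gene, and 0.816% of *Pkn3* runs were shared, all with *Zdhhc12*, a palmitoyltransferase gene on the opposite strand that overlaps *Pkn3* by 81 bases. *Zdhhc12* had a log2 fold change of 0.15 (SE 0.20). The transcript length implied by count and FPKM was 3119 to 3203 bases for *Pkn3* and 6268 to 6285 bases for *Pkn2* over the 6 libraries.

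With *Pkn3* higher and *Pkn2* similar, the balance of the pair differed between the genotypes. This followed largely from the choice of *Pkn3* on this contrast and is a description, not a test. Expressed as a percentage of *Pkn2* FPKM, *Pkn3* was at 58.7%, 40.8% and 54.4% in WT and 142%, 89.2% and 125% in *Npr1*+/- aortas. *Pkn3* thus lay below *Pkn2* in all WT libraries and above it in *Npr1*+/- 1 and 3.

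Over the 6 libraries, the *Pkn3* level was compared per length with 3 genes by exact sign-flip permutation tests on log2 FPKM, two-sided, with p-values adjusted over the 3 comparisons. Against *Pkn2*, *Pkn3* was lower in 4 of 6 libraries, by a mean log2 difference of -0.38 ± 0.72 (SD; exact permutation p = 0.25). The mean difference was -0.98 in WT and 0.22 in *Npr1*+/- aortas, and in CPM, which is not per length, it was -1.37 over the 6 libraries (exact permutation p = 0.03125). Against *Pecam1*, an adhesion molecule of endothelial junctions, *Pkn3* was lower in 6 of 6 libraries, by -3.51 ± 0.37 (exact permutation p = 0.03125, adjusted 0.0469). Against *Cdh5*, which encodes VE-cadherin, it was lower in 6 of 6, by -1.56 ± 0.61 (exact permutation p = 0.03125, adjusted 0.0469). The value 0.03125 is the smallest that 6 libraries can give. These tests take the 6 libraries as separate units and pool both genotypes, the same libraries on whose contrast *Pkn3* was picked. With libraries of the same replicate number averaged, 3 pairs cannot go below an exact permutation p of 0.25.

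*Pecam1* was at 81.9, 69.7 and 121 FPKM in WT and 143, 140 and 134 FPKM in *Npr1*+/- aortas, without overlap. *Cdh5* was at 31.3, 16.3 and 26.7 FPKM in WT and 57.0, 29.6 and 24.9 FPKM in *Npr1*+/- aortas, with overlap. The log2 fold changes were 0.62 (SE 0.26) for *Pecam1* and 0.61 (SE 0.39) for *Cdh5*, each with an edgeR adjusted p of 0.999. *Cdh5* depended on single libraries, with a log2 fold change of 0.12 without *Npr1*+/- 1 and 0.37 without WT 2.

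In a list of 19 endothelial markers that includes *Pecam1* and *Cdh5*, 18 had a log2 fold change above 0 against 51.6% of all genes, and the median was 0.59 against 0.01. No marker passed the adjusted threshold of 0.05 in edgeR, and DESeq2 called 1, *Nos3*. At an unadjusted p under 0.05, 7 of 19 were higher and 0 lower, beside 1.88% and 1.08% of all genes; they were *Nos3*, *Mmrn2*, *Ecscr*, *Egfl7*, *Vwf*, *Emcn* and *Tie1*. The count fell to 3 of 19 without WT 2 and to 3 without *Npr1*+/- 1, with medians of 0.37 and 0.39. In the fit that blocks on replicate number, 14 were higher and 1, the transcription factor gene *Erg*, was lower, beside 7.36% and 5.09% of all genes. The summed marker FPKM was 308.8 to 456.2 in WT and 506.6 to 716.5 in *Npr1*+/- aortas. Of the 19 markers, 7 were higher without overlap, where 3.9% of all genes were, and the part of endothelial RNA in the *Pkn3* values was not tested. In whole aorta, a different number of endothelial cells and a different amount of RNA per cell cannot be told apart.

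**Figure D2:**
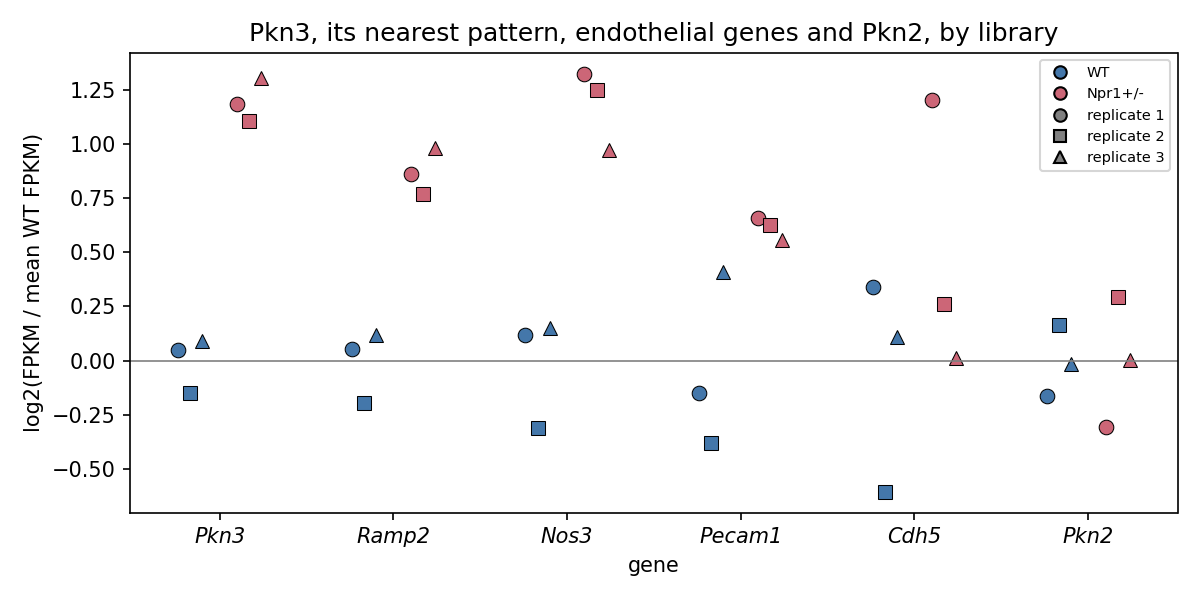
log2 of FPKM over the mean WT FPKM (y axis) for *Pkn3*, *Ramp2*, *Nos3*, *Pecam1*, *Cdh5* and *Pkn2* (x axis), with a point for each library, coloured by genotype and shaped by replicate number. The genotypes are apart for *Pkn3*, *Ramp2*, *Nos3* and *Pecam1*, with log2 fold changes of 1.21, 0.88, 1.19 and 0.62, and overlap for *Cdh5* and *Pkn2*.

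*Pkn3* was also divided by each endothelial marker within a library. Relative to *Pecam1*, *Pkn3* was at 5.68% to 8.34% in WT and 9.91% to 11.9% in *Npr1*+/- aortas, without overlap. Relative to *Cdh5* it was at 21.3% to 35.7% and 25.7% to 63.9%, with overlap. The mean log2 ratio to the marker was higher in *Npr1*+/- than in WT for 19 of 19 markers, with a median difference of 0.60. The groups did not overlap for 8 of 19, namely *Pecam1*, *Tek*, *Egfl7*, *Erg*, *Eng*, *Cldn5*, *Ecscr* and *Sox18*. The difference ran from 0.01 for *Nos3* to 1.51 for *Erg*. These ratios contain *Pkn3*, which was picked on this contrast and whose log2 fold change of 1.21 was above the highest marker value of 1.19. Their direction thus followed largely from that choice, and no share over other genes stands beside the count of 8. They are a description, not a test.

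*Nos3*, the endothelial nitric oxide synthase gene, was the marker most like *Pkn3* in its difference. It was at 14.10, 10.47 and 14.45 FPKM in WT and 32.6, 30.9 and 25.5 FPKM in *Npr1*+/- aortas, without overlap. Its log2 fold change was 1.19 (SE 0.19, edgeR adjusted p = 0.999). *Pkn2* had a log2 fold change of 0.03, so its ratios largely mirrored the changes of the markers themselves. Its mean log2 ratio was higher in *Npr1*+/- aortas for 1 of 19 markers, *Erg*, with a median difference of -0.60.

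**Figure D3:**
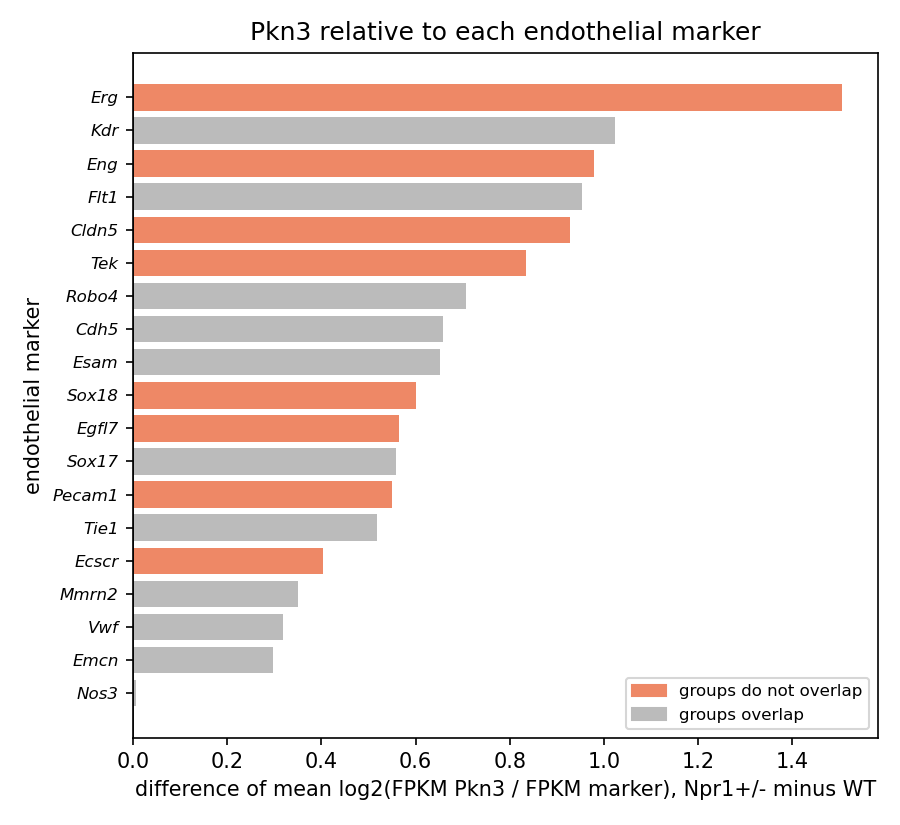
Difference of the mean log2 ratio of *Pkn3* FPKM to marker FPKM, *Npr1*+/- minus WT (x axis), for 19 endothelial markers (y axis), with no error drawn. All bars lie above 0, from 0.01 for *Nos3* to 1.51 for *Erg*, and the 8 coloured bars mark ratios whose groups do not overlap.

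Other cell types also differed between libraries, and their part in the *Pkn3* values was not tested. Of 6 adipocyte markers, 6 had a log2 fold change above 0 and none passed an unadjusted p under 0.05, while with the replicate block 5 were higher at that p, beside 7.36% of all genes. Their summed FPKM was 7870 and 11711 in WT 1 and *Npr1*+/- 1, and 1479 to 3904.5 in the other libraries. Summed smooth muscle markers were at 8352 and 4870 FPKM in those libraries and 13251 to 14706 FPKM in the others. Neuron markers were at 228.2 FPKM in *Npr1*+/- 1 and at most 6.81 elsewhere, and Schwann cell markers at 53.5 and at most 14.2. Without both libraries numbered 1, a choice made after seeing the data, the log2 fold change of *Pkn3* was 1.21 (SE 0.15). The median of the 19 endothelial markers was 0.49 in that fit.

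At an unadjusted p under 0.05, 1.88% of all genes were higher and 1.08% lower. In the other lists there were 0 of 6 lymphatic endothelial, 0 of 6 fibroblast, 0 of 7 macrophage and leukocyte and 0 of 7 smooth muscle markers. There was 1 of 4 cardiomyocyte markers (*Actc1*), 0 of 3 Schwann cell markers and 3 of 3 tested neuron markers, those that passed all higher in *Npr1*+/-. The neuron list held 8 genes, of which *Th*, *Dbh*, *Snap25*, *Chrna3* and *Syt1* did not pass the count filter. At the same unadjusted p, 7 of the 8 were higher in edgeR without the filter, 1 in DESeq2 and 0 in limma on log2(FPKM + 0.1). The neuron count was 1 of 3 without *Npr1*+/- 1, where the median log2 fold change went from 5.28 to 0.95, and 0 of 3 without any 1 of the WT libraries. With the replicate block, 7.36% of all genes were higher and 5.09% lower at an unadjusted p under 0.05. There, 2 of 6 lymphatic, 1 of 7 smooth muscle and 2 of 4 cardiomyocyte markers were higher. So were 2 of 3 Schwann cell and 3 of 3 neuron markers, while 1 of 6 fibroblast markers was lower. In the main fit, 51.6% of all genes had a log2 fold change above 0. Above 0 were 1 of 7 smooth muscle, 1 of 6 fibroblast and 1 of 7 macrophage and leukocyte markers. Above 0 were also 5 of 6 lymphatic, 3 of 4 cardiomyocyte, 3 of 3 Schwann cell and 3 of 3 neuron markers. None of the 4 mesothelial markers was high enough to test, at a summed 0.44 to 3.46 FPKM.

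No gene of the reported lists of genes above or beside PKN passed the test. Across 5 lists, 42 of 43 genes were tested, 0 passed an adjusted p under 0.05 in edgeR or DESeq2 and 0 an unadjusted p under 0.05 in edgeR, beside 2.96% of all genes, and the median log2 fold change was 0.05. With the replicate block, 7.36% of all genes were higher and 5.09% lower at an unadjusted p under 0.05. Among the 42 tested list genes, 1, *Prr5*, was higher (log2 fold change 0.86) and 0 were lower. Of these genes 1 was higher without overlap, and 0 were lower, where 3.9% and 3.58% of all genes were. This was *Rhpn2*, which encodes a GTPase-binding scaffold, at 1.69, 1.88 and 2.14 FPKM in WT and 2.39, 2.52 and 2.74 FPKM in *Npr1*+/- aortas (log2 fold change 0.43).

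Among the upstream GTPases, *Rhoa*, which binds and activates PKN, was at 235.0 to 247.5 FPKM in WT and 221.7 to 243.2 in *Npr1*+/- aortas. *Rhoc*, the most abundant of the list, was at 250.2 to 300.0 and 162.6 to 295.6 FPKM. *Rhob*, which encodes a GTPase of endosomes, was at 176.7 to 239.3 and 214.6 to 223.5 FPKM. *Pdpk1*, which encodes PDK1, was at 7.95 to 8.75 and 7.87 to 8.86 FPKM. In each of these the genotypes overlapped. The 6 GTPase genes, of the RHOA and RAC1 groups, had a median log2 fold change of 0.06 and the 13 genes of PDK1, PI3K, AKT and mTORC2 one of 0.04. *Prr5*, an mTORC2 subunit, had 2.38 to 6.10 FPKM in WT and 3.76 to 11.5 in *Npr1*+/- aortas, highest in both libraries numbered 1.

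The 9 protein kinase C genes, which share the catalytic fold of PKN, had a median log2 fold change of 0.05. *Prkcd*, the most abundant of them, was at 34.25 to 47.42 FPKM in WT and 22.9 to 54.2 in *Npr1*+/- aortas. *Prkce*, with the smallest p of the list, was at 4.08 to 5.83 and 4.55 to 8.13 FPKM (log2 fold change 0.36). The 9 tested other effectors of these GTPases had a median of 0.07. Among them the kinases *Rock1* and *Rock2* were lowest in both libraries numbered 1, as *Pkn2* was. *Rock1* was at 35.8, 62.2 and 52.0 FPKM in WT and 25.9, 64.3 and 67.5 in *Npr1*+/- aortas. The 5 genes for PKN binding partners had a median of 0.01. They include *Bcar1*, the p130Cas adaptor bound by PKN3, at 12.6 to 21.6 FPKM in WT and 13.0 to 21.2 in *Npr1*+/- aortas. *Arhgap42*, a GTPase-activating protein gene, had the smallest p of this list, at 1.48, 1.25 and 0.82 FPKM in WT and 1.92, 1.21 and 1.68 in *Npr1*+/- aortas, with overlap (log2 fold change 0.42).

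**Figure D4:**
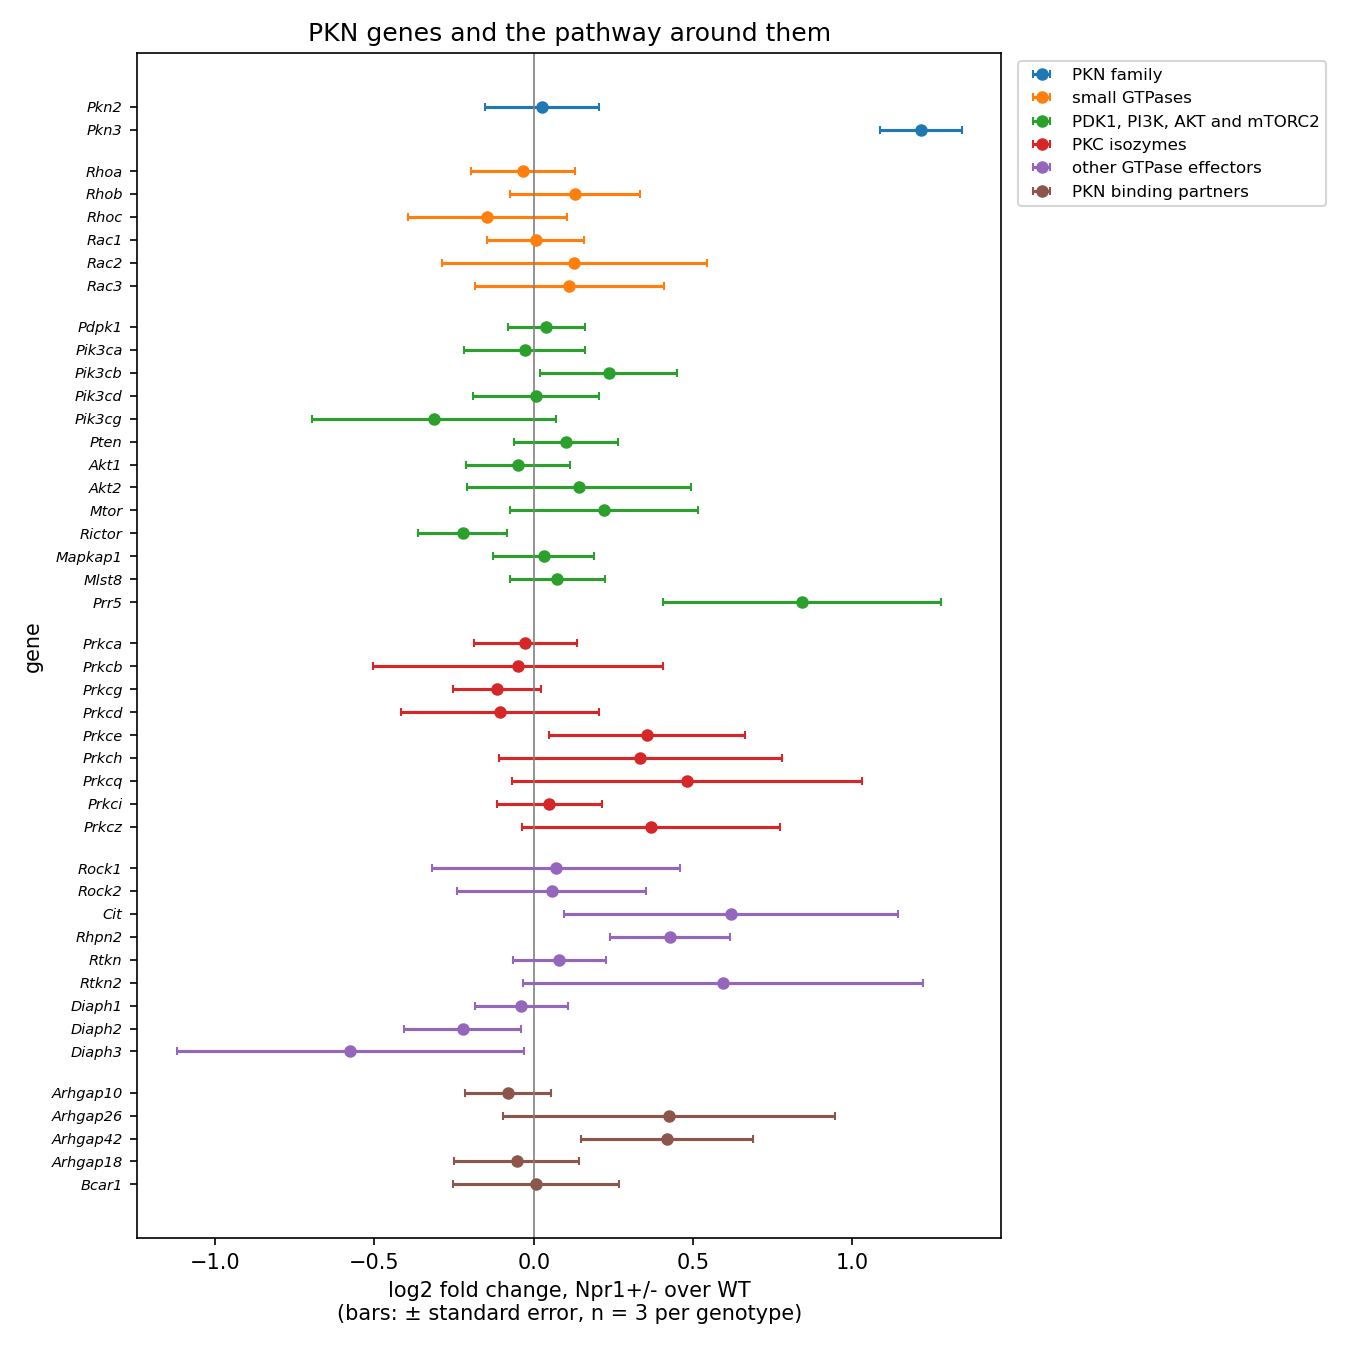
Fitted log2 fold change, *Npr1*+/- over WT (x axis), of the PKN genes and the 42 tested genes of the 5 lists (y axis), with bars of ± 1 SE and 3 libraries per genotype. *Pkn3* is at 1.21, and the listed genes run from -0.58 to 0.84.

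The neighbours of *Pkn3* and *Pkn2* on the chromosome were also read. The 3 nearest tested genes on each side of *Pkn3* had log2 fold changes of -0.19 to 0.32, and the 6 around *Pkn2* of -0.13 to 0.57. All 12 overlapped between the genotypes, where 3.9% of all genes were higher and 3.58% lower without overlap. At an unadjusted p under 0.05, 0 passed, beside 2.96% of all genes. With the replicate block 1 of 12 was higher and 0 lower at that p, where 7.36% and 5.09% of all genes were. This was *Tbc1d13* beside *Pkn3*, at 17.3, 10.4 and 10.41 FPKM in WT and 19.6, 12.8 and 14.2 FPKM in *Npr1*+/- aortas. *Zdhhc12* and *Set*, a chromatin and phosphatase regulator gene near *Pkn3*, were at 0.15 and 0.05.

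The genes with a pattern most like *Pkn3* over the 6 libraries, by Pearson r of log2 CPM, were *Ramp2*, *Atp2b2*, *Surf1*, *Dhh* and *Hyal2*, with r of 0.994 to 0.969. They were picked as the highest of 13937 genes over 6 libraries. This r includes the genotype difference and whatever the libraries share in depth and cell mix. *Ramp2*, a co-receptor for adrenomedullin, was at 52.3, 44.0 and 54.6 FPKM in WT and 91.5, 85.7 and 99.1 FPKM in *Npr1*+/- aortas. With the genotype means removed, the r with *Pkn3* was 0.993 for *Ramp2*, 0.894 for the calcium pump gene *Atp2b2*, 0.75 for the hyaluronidase gene *Hyal2*, 0.57 for the hedgehog ligand gene *Dhh* and -0.21 for the respiratory chain assembly gene *Surf1*. *Pecam1* had an r of 0.853 with *Pkn3*, at place 166 of 13937 genes, and *Cdh5* of 0.567, at place 1326. With the genotype means removed, r was 0.845 for *Pecam1* and 0.540 for *Cdh5*. Rank correlations (Spearman) over the 6 libraries were 0.829 and 0.257.

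*Pkn2* was most like *Snx16*, *Tax1bp1*, *Pus3*, *Esco1* and *Ptgs2*, with r of 0.989 to 0.979 over the 6 libraries. These act in endosome sorting, autophagy, tRNA modification, chromatid cohesion and prostaglandin synthesis. Each was lowest in *Npr1*+/- 1 and highest in *Npr1*+/- 2, the order that *Pkn2* had. They were picked for this likeness among 13937 genes, so the shared order followed largely from that choice. None of the 5 had a log2 fold change beyond 0.14.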

How the data were processed

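RNA of 6 aorta libraries was measured by RNA-seq on DNA nanoballs. The authors aligned filtered reads to a reference coding gene set with Bowtie2, the labels name the build mm10, and they deposited RSEM estimated counts and FPKM per gene; 4 columns of the authors' group means were not used. Estimated counts were rounded and tested in R 4.3.3 with edgeR 4.0.16 (quasi-likelihood, TMM, filterByExpr with a minimum count of 10), leaving 13938 of 18191 genes. Called genes had a Benjamini-Hochberg adjusted p below 0.05 and changed by 0.5 or more on the log2 scale. The authors' notes name DESeq2 1.4.5; DESeq2 1.42.0 and limma 3.58.1 on log2(FPKM + 0.1) were alternatives, with other scalings, no filter and each library left out. Levels were compared as FPKM by exact sign-flip permutation tests. Shared 50-base runs came from GENCODE M21 transcripts. Scripts were tested on simulated data, where edgeR missed most genes changed 2-fold and DESeq2 called some genes when none was changed.

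Columns headed as knockdown were taken as the *Npr1*+/- group. A floor of 3 counts corresponds to 0.18 to 0.222 CPM, for counting error only. Deviations from the genotype means correlated at 0.645, 0.386 and 0.235 between libraries sharing a replicate number in the labels and at -0.58 to 0.445 between the others. Each same-number value was over 0.1, so the numbers were treated as pairs and a replicate block was fitted. The labels state no pairing, and WT 3 correlated with *Npr1*+/- 2 at 0.445, above the same-number values of numbers 2 and 3. The block is thus an alternative fit and does not establish pairs. Members and gene lists were chosen with earlier results of these data known. Named genes were the PKN genes, *Npr1*, *Pecam1*, *Cdh5*, up to 3 genes per list by smallest unadjusted p and those of highest FPKM, the 5 most similar genes of each member and 3 neighbours on each side. *Rhoa*, *Pdpk1*, *Rock2*, *Gm14434* and genes listed beside a count were named after their values were seen. Results for some genes are not reported here.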

Additional observations from a re-analysis of the deposited data

How the results depend on the processing

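*Pkn3* had log2 fold changes of 1.09 (limma on log2(FPKM + 1)) to 1.22 in the alternatives and 1.13 to 1.28 with 1 library left out. It was picked on this contrast and its groups did not overlap, so leaving out a library could not reverse its direction. These values are a description and no support for the difference. *Pkn2* ran from -0.15 to 0.14 with 1 library left out, *Pecam1* from 0.44 to 0.89 and *Cdh5* from 0.12 to 0.84. Over all genes, edgeR called 0 (412 at an unadjusted p under 0.05), DESeq2 called 15, and leaving out 1 library called 0. DESeq2 called 3 list genes, *Pkn3*, *Nos3* and *Actc1*, against 0 in edgeR, and *Pkn3*, chosen on this contrast, counts as no support; the cause was not tested. Leaving out both libraries numbered 1, chosen after seeing the data, called 1 gene, *Gm14434*. With the replicate block, edgeR called 0 genes and gave *Pkn3* 1.22 (SE 0.12); the block changed no call. In CPM, not divided by length, *Pkn3* was below *Pkn2* by a log2 difference of -1.37 (exact permutation p = 0.03125). With 1 library left out, the log2 FPKM difference of *Pkn3* was -0.56 to -0.20 from *Pkn2*, -3.59 to -3.38 from *Pecam1* and -1.75 to -1.43 from *Cdh5*, and 5 libraries cannot give an exact permutation p below 0.0625. Averaging libraries of the same replicate number, chosen after seeing the data, left the differences at -0.38, -3.51 and -1.56 with an exact permutation p of 0.25 for *Pecam1* and *Cdh5*, the smallest that 3 pairs allow. At this depth the counting error of *Pkn3* was 3.63% to 5.96% per library.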
